A study of Mus musculus with 20 samples.

Results

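The complement genes described here are 8 members of the complement system whose probes lie on a whole mouse genome array. They are the C1q chains C1qa, C1qb and C1qc, the central component C3, properdin (Cfp), the anaphylatoxin receptor C3ar1, and the cell surface regulators Cd55 and Cd59a. Members were taken by gene name from the array's own annotation, with C1qc also looked for as C1qg and Cfp as Pfc. This gave 8 genes of the 28599 gene names on the array, and 13 of its 41174 probes.

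Whole blood came from 4 female C57Bl/6 mice, numbered 305, 310, 315 and 320, whose age the labels do not give. Day 0 blood was drawn before inoculation. The same mice were bled again 10, 15, 20 and 25 days after they had received 10000000 cells of the mouse hepatoma line Hepa1-6 under the skin, and no other treatment is named. Each of the 20 arrays carried 1 blood sample in Cy5 and, in Cy3, RNA of untreated female C57Bl/6 blood, which the labels describe in the same words for every array. Uninoculated mice bled on the later days were not analysed here, so time, repeated bleeding and tumour growth cannot be told apart.

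Complement is a cascade of plasma proteins that tags microbes, dying cells and immune complexes. C1q starts the classical arm when it binds antibody or altered surfaces, C3 is cut by convertases in which all arms meet, and properdin, made largely by neutrophils and monocytes, steadies the convertase of the alternative arm. Cells of the body carry CD55, which speeds the decay of convertases, and CD59, which blocks the membrane attack complex. The liver makes most plasma C3, so that blood cell RNA reports the part made by circulating cells, while C1q is known mainly as a product of tissue macrophages and dendritic cells.

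A value below is the log2 ratio of Cy5 to Cy3 after background correction and loess, so that 0 means a level equal to the reference. A probe was called when its Benjamini-Hochberg adjusted p in limma, over all 20920 probes tested, was under 0.05. The 4 arrays of a day shared 1 slide, so day and slide cannot be told apart. Net Cy5 intensity (signal less local background) had array medians of 48.9 to 67.6 on day 0 and 12.6 to 28.4 afterwards, and 37.7% to 51.2% of spots were well above background in Cy5. The reference channel differed by day as well: fitted alone, it gave an F test call for 8242 of the probes (39.4%), a check added after the data had been seen. Differences in the reference are therefore given beside the results of the 8 genes, and they are not given for the other complement genes. In whole blood, fewer cells of a type and less RNA per cell cannot be told apart.

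Of the 13 probes, 7 passed the filter on dim signals. They stand for C1qb, C3 and Cfp with 1 probe each and for Cd55 and Cd59a with 2 each. All 7 were well above background in Cy5 on 20 of 20 arrays, and none was saturated. The other 6 probes stayed near background. C1qa was well above background on 1 array and C1qc on 2, although C1qc lies next to C1qb, and C1qa next to C1qc, in the GRCm38.p6 gene table. The net Cy5 intensity reached at most 55.4 for the C1qa probe and 50.9 for the C1qc probe, and levels of different probes cannot be compared. The receptor C3ar1, through which myeloid cells sense the C3a fragment, was well above background on 3 arrays with the probe A_51_P282557 and on none with A_52_P81345. The second C3 probe (A_52_P133594) and the third Cd55 probe (A_52_P136303) were well above background on no array. C1qa, C1qc and C3ar1 thus have no tested change, and their absence from the blood RNA does not follow.

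**Figure D1:**
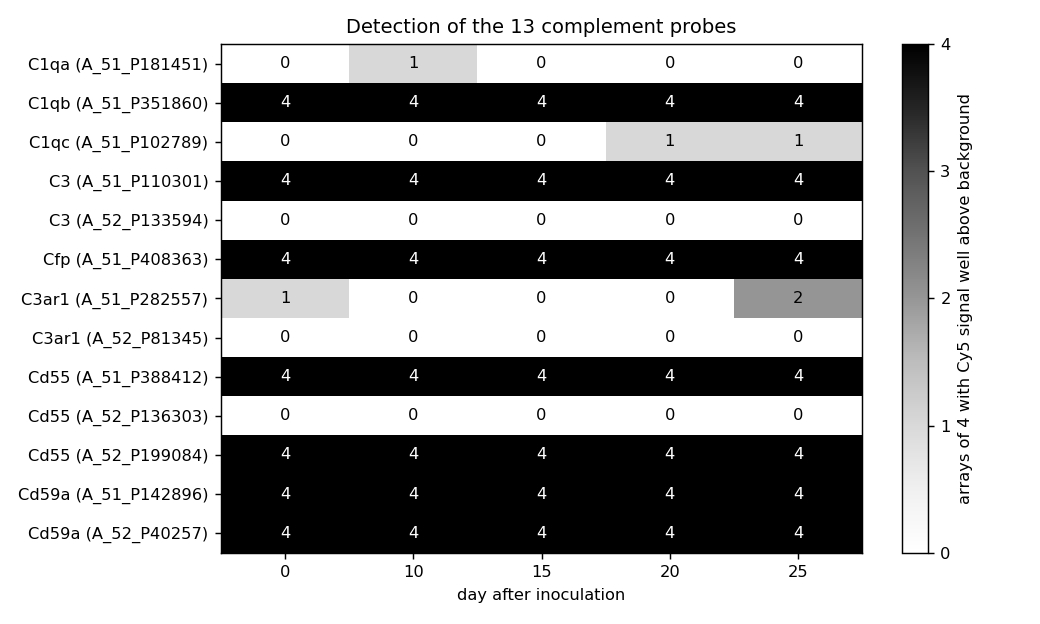
Number of arrays, of 4 per day, on which each of the 13 complement probes was well above background in Cy5 (rows are probes, columns are days after inoculation, and darker cells hold more arrays). The 7 tested probes show 4 arrays on every day, and no other probe exceeds 2 arrays on any day.

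The calls against day 0 came from C1qb, upward, and Cfp, downward. On day 10, 2 of the 7 probes were called, 1 higher (C1qb) and 1 lower (Cfp), where 11.2% of all probes tested were called. On day 15 the single call was Cfp, lower, with 5.87% of all probes called. On day 20 C1qb was again higher and Cfp lower, with 2.90% of all probes called. On day 25 none of the 7 was called by limma, 2 of them had an unadjusted p under 0.05, and 0.148% of all probes were called. With the mouse as a block the calls over all probes went from 607 to 1522 on day 20 and from 31 to 275 on day 25. From day 10 to day 25, 3 probes were called lower (C1qb and both probes of Cd59a), where 31.5% of all probes were called. The F test over the later days called 4 of 7 (C1qb, Cfp and both Cd59a probes), beside 27.0% of all probes. The median difference of the 7 probes was 0.20, 0.16, 0.17 and -0.090 for days 10, 15, 20 and 25 against day 0, and 0.059 for day 25 against day 10, while the median of all probes stayed between -0.023 and 0.032. The comparisons with day 0 share the 4 day 0 arrays and are not independent of one another.

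**Figure D2:**
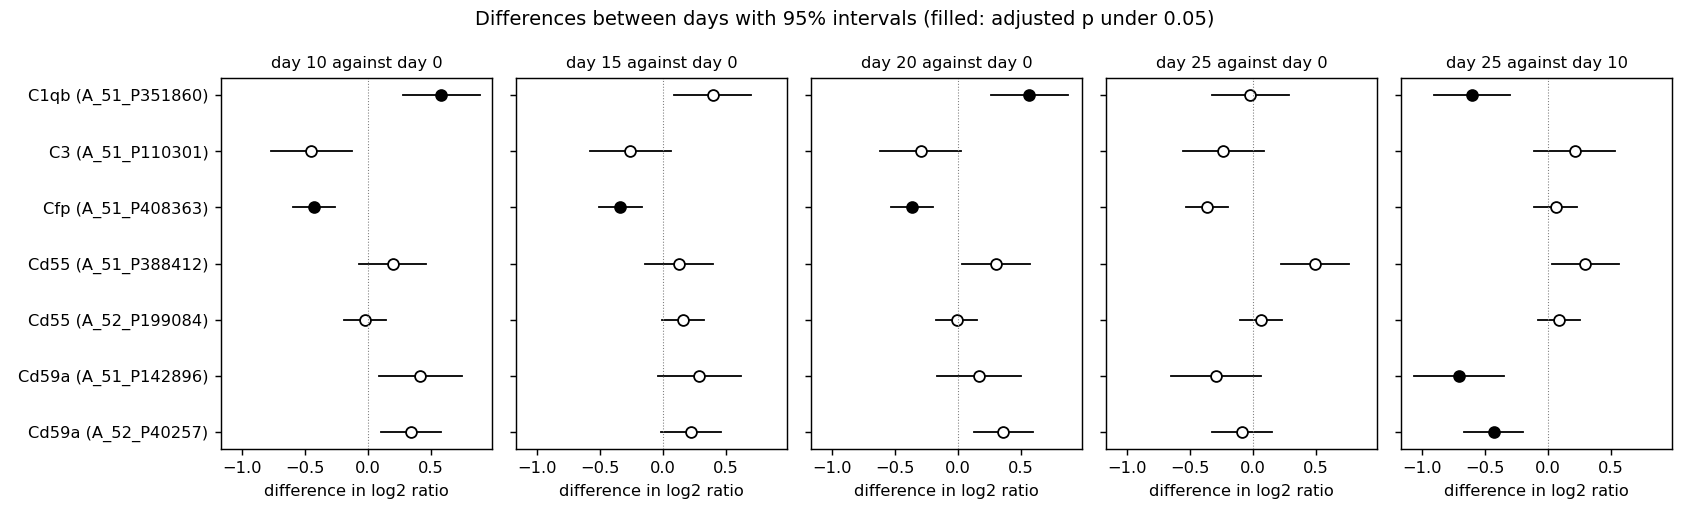
Difference in log2 ratio between days for the 7 tested complement probes, 1 panel per comparison, with lines for the 95% intervals of the limma fit and filled points for an adjusted p under 0.05. C1qb and Cfp hold the filled points against day 0, and C1qb and both Cd59a probes those of day 25 against day 10.

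Promoter sequence is shown for the 3 genes with an F test call. RefSeq promoters on GRCm38.p6 were matched by symbol for 7 of the 8 members (not C1qa). The 250 bases before the transcript start are printed 5′ to 3′ on the gene's strand, from chr4:136886201-136886450 on the minus strand for C1qb, chrX:20931556-20931805 on the minus strand for Cfp and chr2:104095551-104095800 on the plus strand for Cd59a. Capitals mark matches on either strand to the motifs searched. For ETS type factors the letters searched were GAGGAA. For GATA type factors they were AGATAA, and as a second form TGATAA. For Krüppel-like factors, which bind a short box, they were CACCC. For C/EBP type factors the motif was TTNNGNAA.
C1qb: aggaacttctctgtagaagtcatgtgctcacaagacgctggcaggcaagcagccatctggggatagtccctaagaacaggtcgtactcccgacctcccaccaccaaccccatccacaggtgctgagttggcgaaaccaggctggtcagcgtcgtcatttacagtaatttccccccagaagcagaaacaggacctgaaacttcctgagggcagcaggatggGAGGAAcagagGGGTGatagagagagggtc
Cfp: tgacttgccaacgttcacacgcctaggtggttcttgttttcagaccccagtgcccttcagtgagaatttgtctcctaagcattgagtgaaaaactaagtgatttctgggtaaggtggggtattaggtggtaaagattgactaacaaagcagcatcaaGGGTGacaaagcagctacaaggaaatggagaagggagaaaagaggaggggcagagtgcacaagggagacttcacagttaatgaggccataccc
Cd59a: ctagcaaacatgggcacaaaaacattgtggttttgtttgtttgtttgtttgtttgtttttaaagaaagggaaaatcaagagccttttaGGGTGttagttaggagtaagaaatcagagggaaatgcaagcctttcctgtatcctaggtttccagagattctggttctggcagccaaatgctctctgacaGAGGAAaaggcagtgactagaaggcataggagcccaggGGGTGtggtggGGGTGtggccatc
GAGGAA occurred 1 time in C1qb, 30 bases before the start, and 1 time in Cd59a, and was not found in the Cfp window. CACCC, here as its complement GGGTG, occurred 1 time in C1qb, 1 time in Cfp and 3 times in Cd59a. No GATA type or C/EBP type match was found in these 3 windows. Over 32851 windows of the same length, 23.3% held GAGGAA, 9.99% AGATAA, 7.94% TGATAA, 52.0% CACCC and 36.8% TTNNGNAA. These are matches of letters only, and no binding was measured.

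C1qb, which encodes the B chain of the C1q recognition molecule, was higher on day 10 and day 20 than on day 0. In mice 305, 310, 315 and 320 its log2 ratio was -0.22, -0.09, -0.04 and -0.08 on day 0. It was 0.43, 0.23, 0.54 and 0.70 on day 10. It was 0.12, 0.49, 0.14 and 0.39 on day 15. All 12 values of days 10, 15 and 20 lay above all 4 of day 0. On day 20 the ratios were 0.11, 0.38, 0.60 and 0.74, and on day 25 they were -0.40, -0.05, -0.32 and 0.27. On day 25 the mice lay on both sides of the day 0 values. The difference from day 0 was 0.58 on day 10 (SE 0.15, 95% interval 0.28 to 0.89, adjusted p = 0.0163, higher in 4 of 4 mice). It was 0.39 on day 15 (adjusted p = 0.149, and 0.0408 with the mouse as a block) and 0.56 on day 20 (adjusted p = 0.0429). On day 25 it was -0.021 (95% interval -0.33 to 0.28, adjusted p = 0.957). Ordered by mean, day 25 (-0.13 ± 0.30, SD, n = 4) and day 0 (-0.11 ± 0.077, n = 4) came lowest and did not differ beyond their spread. Day 15 (0.29 ± 0.18, n = 4), day 20 (0.46 ± 0.28, n = 4) and day 10 (0.48 ± 0.20, n = 4) came above them and did not differ from one another beyond their spread. From day 10 to day 25 the ratio fell by 0.60 (SE 0.15, adjusted p = 0.00481, lower in 4 of 4 mice), although mouse 320 on day 25 lay above mouse 310 on day 10.

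The reference channel of C1qb differed between days as well. The 4 day 0 arrays had net Cy3 intensities of 211 to 249, those of day 10 had 135 to 189, and those of day 25 had 340 to 644. After loess and quantile normalization of mean spot brightness across arrays, Cy3 for C1qb was 0.028 above day 0 on day 10 (adjusted p = 0.896) and 0.52 above it on day 15 (adjusted p = 0.00743). It was 0.69 above day 0 on day 20 (adjusted p = 0.00094) and 1.15 above it on day 25 (adjusted p = 8.05e-06). Cy5 alone, after the same steps, was above day 0 on every later day. The differences were 0.61, 0.91, 1.25 and 1.13 log2 units on days 10, 15, 20 and 25 (adjusted p = 0.0019, 7.43e-05, 7.02e-06 and 3.55e-05). Before these steps its net intensity was 327 to 516 on day 0, 287 to 495 on day 10 and 238 to 361 on day 15. It was 349 to 582 on day 20 and 628 to 1342 on day 25. Array medians of net Cy5 were also highest on day 0, as given above. The rise on days 10 and 15 thus appears only in the scaled values. After these steps C1qb was therefore higher on day 10 in the ratio and in Cy5 alone, with Cy3 near its day 0 level. Between day 10 and day 25 the ratio fell while Cy5 rose by 0.51 (adjusted p = 0.00407) and Cy3 rose by 1.12 (adjusted p = 7.05e-06). The cause of the change in the reference was not tested.

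The size and direction of the C1qb differences depended on the processing. With the scanner software's own log ratio the day 10 difference was 1.22 (adjusted p = 0.000371), and the day 15 difference of 1.26 was called (adjusted p = 9.1e-05). With median centring in place of loess, which moved the median of all probes by -0.39 on day 10, the C1qb difference was -0.18 (adjusted p = 0.579), 0.22 above that median. The day 10 call was lost without mouse 305 of day 0 (adjusted p = 0.0626) or without mouse 320 of day 10 (adjusted p = 0.0609). The day 20 call was lost when any of 12 arrays was left out (adjusted p up to 0.148) and without the 4 arrays of day 15 (adjusted p = 0.0758). These 12 were mice 305, 310 and 315 of day 0, mice 305 and 315 of day 10, mice 305, 315 and 320 of day 15, mice 310, 315 and 320 of day 20, and mouse 310 of day 25.

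Of the 16 monocyte and macrophage markers, 13 were tested, and 0 were called higher and 0 called lower on day 10 and on day 20. Their median difference from day 0 was -0.11 on day 10 and -0.065 on day 20. On day 15, 2 of the 13 were called lower, with a median difference of -0.29, where 5.87% of all probes were called. The mean log2 ratio over that list ran from 0.069 to 0.58 on day 0, from 0.050 to 0.27 on day 10, from -0.19 to 0.088 on day 15, from -0.0093 to 0.41 on day 20 and from 0.16 to 0.53 on day 25. Of the 16 markers of that list, 11 were well above background on all 20 arrays and 2, Vcam1 and Cd163, on none. Erythroid markers had their highest mean on day 10 and their lowest on day 25, as C1qb did. The mean log2 ratio of 9 such genes was 0.28, 0.95, 0.75, 0.47 and -0.37 on days 0, 10, 15, 20 and 25. Day 15 lay above day 20 for them and below it for C1qb. In Cy5 alone the day 25 values parted, with C1qb 1.13 above day 0 and the median of the erythroid list at -0.44. C1qb also varied with both probes of Cd59a, at Pearson r = 0.70 (A_51_P142896, 19 arrays) and 0.83 (A_52_P40257, 20 arrays), a description over arrays that share a reference and, within a day, a slide. The part of cell composition in the C1qb values was not tested.

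C3, the component on which all arms converge, was lower than on day 0 in its mean on every later day, but no comparison was called. Its probe (A_51_P110301) was printed as 10 spots per array, whose log2 ratios differed by an SD of 0.014 to 0.15 (median 0.051) within an array. The mice of a day differed by an SD of 0.13 to 0.41. The ratio was 0.42, 0.22, 0.10 and 0.01 on day 0 and -0.45, -0.24, -0.18 and -0.18 on day 10, in mice 305, 310, 315 and 320. Day 10 did not overlap with day 0, and mouse 305 went from the highest value of its day to the lowest. On day 15 the ratio was 0.05, 0.00, -0.12 and -0.23, on day 20 it was -0.04, 0.44, -0.39 and -0.45, and on day 25 it was 0.10, -0.11, 0.13 and -0.33. The later days overlapped with day 0, and mouse 310 stood highest on day 20. The differences from day 0 were -0.45, -0.26, -0.30 and -0.24 on days 10, 15, 20 and 25 (SE 0.15 each), with adjusted p = 0.0653, 0.521, 0.25 and 0.421. With the mouse as a block the day 10 value reached adjusted p = 0.0398. It also passed without mouse 320 of day 0 (adjusted p = 0.047) and without mouse 310 of day 20 (adjusted p = 0.0211). With median centring the C3 difference on day 10 was -1.82 (adjusted p = 0.0233), against a shift of all probes of -0.39. Cy3 for C3 was between 0.033 and 0.15 above its day 0 level on the later days, called on none (lowest adjusted p = 0.0561).

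Cfp, the gene of properdin, was lower than on day 0 in 4 of 4 mice on each later day, and its fall was called on days 10, 15 and 20. On day 0 its log2 ratio was 0.49, 0.32, 0.16 and 0.38 in mice 305, 310, 315 and 320. On day 10 it was -0.23, -0.03, -0.06 and -0.02. On day 15 it was 0.00, 0.00, 0.03 and -0.02. Neither of these days overlapped with day 0. On day 20 it was -0.04, 0.23, -0.16 and -0.12, with mouse 310 above the lowest day 0 mouse, and on day 25 it was 0.06, -0.01, -0.01 and -0.14, again below all day 0 values. The differences from day 0 were -0.42 on day 10 (SE 0.080, 95% interval -0.59 to -0.26, a 1.34-fold lower ratio, adjusted p = 0.00385), -0.34 on day 15 (adjusted p = 0.0158) and -0.36 on day 20 (adjusted p = 0.0217). The day 25 difference of -0.37 (95% interval -0.53 to -0.20) was as large but had an adjusted p of 0.065, and of 0.0371 with the mouse as a block. Day 0 was the highest day (0.34 ± 0.14, SD, n = 4). Day 15 (0.0046 ± 0.019, n = 4), day 20 (-0.023 ± 0.18, n = 4), day 25 (-0.025 ± 0.083, n = 4) and day 10 (-0.084 ± 0.10, n = 4) did not differ from their neighbours in that order beyond their spread, and day 25 differed from day 10 by 0.059 (adjusted p = 0.599).

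In Cy5 alone Cfp was lower than on day 0 by 0.38 on day 10 (adjusted p = 0.00177), by 0.22 on day 15 (adjusted p = 0.0309) and by 0.25 on day 25 (adjusted p = 0.0374), and the day 20 value of -0.17 was not called (adjusted p = 0.104). Cy3 for Cfp was 0.049, 0.11, 0.19 and 0.11 above day 0 on days 10, 15, 20 and 25, called on day 20 (adjusted p = 0.00872). The day 15 call was lost without mouse 305 of day 0 (adjusted p = 0.0735) or mouse 320 of day 15 (adjusted p = 0.0535). The day 20 call was lost without mouse 305 of day 0 (adjusted p = 0.0821), mouse 310 of day 0 (adjusted p = 0.0538), mouse 315 of day 20 (adjusted p = 0.0978), mouse 320 of day 20 (adjusted p = 0.081) or the 4 arrays of day 15 (adjusted p = 0.0593). The day 25 value was called without mouse 315 of day 0 (adjusted p = 0.0487), mouse 310 of day 20 (adjusted p = 0.0421) or mouse 310 of day 25 (adjusted p = 0.0155). With median centring the differences were -1.48 on day 10 (adjusted p = 0.0233), -1.23 on day 15 (adjusted p = 0.0701) and -0.996 on day 20 (adjusted p = 0.252), and day 25 was 1.02 above day 10 (adjusted p = 0.0267), against shifts of all probes of -0.39, -0.29, -0.22 and 0.39.

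The list of mature neutrophil markers lay in its median below day 0 on every later day, as Cfp did. Its mean was highest on day 0, as was that of C3, which was not called. All 14 genes of that list were tested. On days 10, 15, 20 and 25, 9, 8, 9 and 3 of them were called lower than on day 0, with 0 called higher. The shares of all probes called were 11.2%, 5.87%, 2.90% and 0.148%. Their median difference was -0.86, -0.75, -0.91 and -0.49. With median centring 11, 2, 2 and 0 were called lower, and 9 were called higher on day 25 than on day 10, against 2 in the loess ratios. Of all 20920 probes, median centring called 9205, 3, 3 and 0 lower on days 10, 15, 20 and 25. It called 10272 higher on day 25 than on day 10, against 3708 in the loess ratios. The mean log2 ratio over the list ran from 0.47 to 0.93 on day 0, from -0.19 to 0.24 on day 10, from -0.14 to 0.095 on day 15, from -0.34 to 0.36 on day 20 and from 0.14 to 0.42 on day 25. The calprotectin gene S100a8, abundant in neutrophils, fell by 1.83 on day 10 (adjusted p = 0.000681). Not all genes of the list fell. Ltf was above day 0 by 1.17, 0.30, 1.53 and 1.24 on days 10, 15, 20 and 25, called on none. Camp was above it by 0.22 on day 10, also not called. The part of neutrophil content in the values of Cfp and C3 was not tested.

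Cd55, the decay-accelerating factor, was not called in any comparison, and its probes disagreed. With A_51_P388412 the log2 ratio was 0.19, -0.04, 0.13 and -0.15 on day 0 and 0.22, 0.19, 0.08 and 0.44 on day 10, in the order of the mice above. It was 0.08, 0.37, 0.06 and 0.14 on day 15 and 0.14, 0.17, 0.45 and 0.57 on day 20. On day 25 it was 0.69, 0.14, 0.52 and 0.75. Day 25 held the highest mean (0.52 ± 0.28, SD, n = 4), and only mouse 310 of that day lay among the day 0 values. The differences from day 0 were 0.20, 0.13, 0.30 and 0.49 (SE 0.13 each) on days 10, 15, 20 and 25, and the last had an adjusted p of 0.0961 (95% interval 0.22 to 0.76, higher in 4 of 4 mice). Without mouse 310 of day 25 it was 0.62 (adjusted p = 0.00423), and day 25 was then also 0.42 above day 10 (adjusted p = 0.00881). In Cy5 alone the day 25 difference was 0.047 (adjusted p = 0.79), while Cy3 for this probe fell by 0.44 (adjusted p = 0.000391). Cy3 had also fallen by 0.25, 0.29 and 0.46 on days 10, 15 and 20 (adjusted p = 0.017, 0.00903 and 0.000306), and Cy5 was called on none of these days (lowest adjusted p = 0.15). With A_52_P199084, a dimmer probe, all 20 ratios lay between -0.36 and 0.00, and the differences from day 0 were -0.024, 0.16, -0.0097 and 0.063 (SE 0.078). For day 25 its 95% interval ran from -0.10 to 0.23. Cy3 for this probe differed from day 0 by at most 0.11, called on no day (lowest adjusted p = 0.122). With median centring the day 10 difference of A_51_P388412 was -1.04, so that its direction turned, and it was not called (adjusted p = 0.0526). Where the probes lie in the transcript is not given in the files, and Cd55os, an antisense gene, lies beside Cd55 in the gene table.

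Cd59a, which keeps the membrane attack complex from assembling on blood cells, had the largest fall from day 10 to day 25 among the 7 tested probes. With A_51_P142896 the log2 ratio on day 0 was -0.41, -0.33, -0.15 and 0.51 in mice 305, 310, 315 and 320, so that mouse 320 stood apart. On day 10 it was 0.25, 0.24, 0.43 and 0.37. On day 15 it was 0.04, 0.39, 0.18 and 0.16. These days were higher than day 0 in mice 305, 310 and 315 and lower in mouse 320. On day 20 it was -0.07, 0.23, 0.19 and -0.07, and on day 25 it was -0.54, -0.09 and -0.53 in mice 305, 310 and 315. The spot of mouse 320 on day 25 was marked non-uniform and left out, so that n = 3 there. Day 25 lay below every value of day 10, and the ratio fell by 0.71 between these days (SE 0.17, 95% interval -1.07 to -0.35, a 1.63-fold lower ratio, adjusted p = 0.00504, lower in 3 of 3 mice).

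The other Cd59a probe, A_52_P40257, gave the same direction. Its ratio was 0.23, 0.13, 0.33 and 0.45 on day 10 and -0.14, -0.02, -0.21 and -0.22 on day 25, again without overlap. The fall was 0.43 (SE 0.11, 95% interval -0.67 to -0.20, adjusted p = 0.00779, lower in 4 of 4 mice). On day 0 it was -0.21, -0.22, -0.08 and 0.28, on day 15 it was 0.02, 0.38, 0.06 and 0.20, and on day 20 it was 0.02, 0.36, 0.43 and 0.39. Mouse 320 was the highest of day 0 here too. Against day 0 the probes differed by 0.42 and 0.34 on day 10 (adjusted p = 0.097 and 0.0564) and by 0.29 and 0.22 on day 15 (adjusted p = 0.459 and 0.385). On day 20 they differed by 0.17 and 0.36 (adjusted p = 0.545 and 0.0806), and on day 25 by -0.29 and -0.090 (adjusted p = 0.372 and 0.709). With the mouse as a block A_52_P40257 was called on day 10 (adjusted p = 0.0346) and day 20 (adjusted p = 0.0438). Without mouse 320 of day 0 the day 10 differences were 0.62 (adjusted p = 0.0019) and 0.45 (adjusted p = 0.00597), A_51_P142896 was called on day 15 (0.49, adjusted p = 0.0107) and A_52_P40257 on day 20 (0.47, adjusted p = 0.0153). A_52_P40257 also passed on day 10 without mouse 310 of day 10 (adjusted p = 0.0352), mouse 310 of day 15 (adjusted p = 0.0496) or mouse 305 of day 20 (adjusted p = 0.0353), and on day 20 without mouse 305 of day 20 (adjusted p = 0.0125).

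In the reference channel A_52_P40257 fell by 0.32 on day 10 (adjusted p = 0.000446) and by 0.18 on day 20 (adjusted p = 0.0253) against day 0. Its Cy5 differences on these days were 0.025 and 0.17, neither called (adjusted p = 0.92 and 0.325). For A_51_P142896 Cy5 rose by 0.57 on day 10 (adjusted p = 0.0248) and by 0.51 on day 15 (adjusted p = 0.0311), with Cy3 higher by 0.15 (adjusted p = 0.141) and 0.22 (adjusted p = 0.0408).

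In Cy5 alone A_51_P142896 fell by 0.85 from day 10 to day 25 (adjusted p = 0.00229), with Cy3 lower by 0.14 (adjusted p = 0.256). For A_52_P40257 the Cy5 difference was -0.24 (adjusted p = 0.152) and Cy3 was 0.19 higher (adjusted p = 0.0269). With median centring, which raised the median of all probes by 0.39 between these days, both differences turned positive and were not called (0.27 and 0.14, adjusted p = 0.57 and 0.607), and both stayed below that median. The day 10 differences from day 0 turned negative with median centring (-0.62 and -0.26), neither called (adjusted p = 0.148 and 0.318). For day 25 against day 10 the scanner software's log ratio gave -1.17 and -1.25 (adjusted p = 0.00289 and 0.00137). Cd59b, the near copy beside Cd59a in the gene table, had 1 tested probe, which differed by -0.20 between these days (adjusted p = 0.315). Where the probes of the copies can bind each other's transcript is not given in the files.

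Erythroid markers moved with Cd59a. Of 10 genes in that list 9 were tested. Against day 0, 4 were called higher on day 10 and 2 on day 15, where 11.2% and 5.87% of all probes were called. All 9 were called lower on day 25 than on day 10, with a median difference of -1.31, where 31.5% of all probes were called. With median centring the list's median against day 0 on day 10 was -0.82 rather than 0.68, and 1 of 9 was called lower from day 10 to day 25. Median centring called 186 of all 20920 probes lower between these days. The mean log2 ratio over the list ran from -0.19 to 0.78 on day 0, from 0.898 to 1.005 on day 10, from 0.55 to 0.92 on day 15, from 0.27 to 0.83 on day 20 and from -0.64 to -0.13 on day 25. The anion exchanger Slc4a1 of the red cell membrane fell by 1.90 from day 10 to day 25 (adjusted p = 0.00014). The part of erythroid content in the Cd59a values was not tested.

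**Figure D3:**
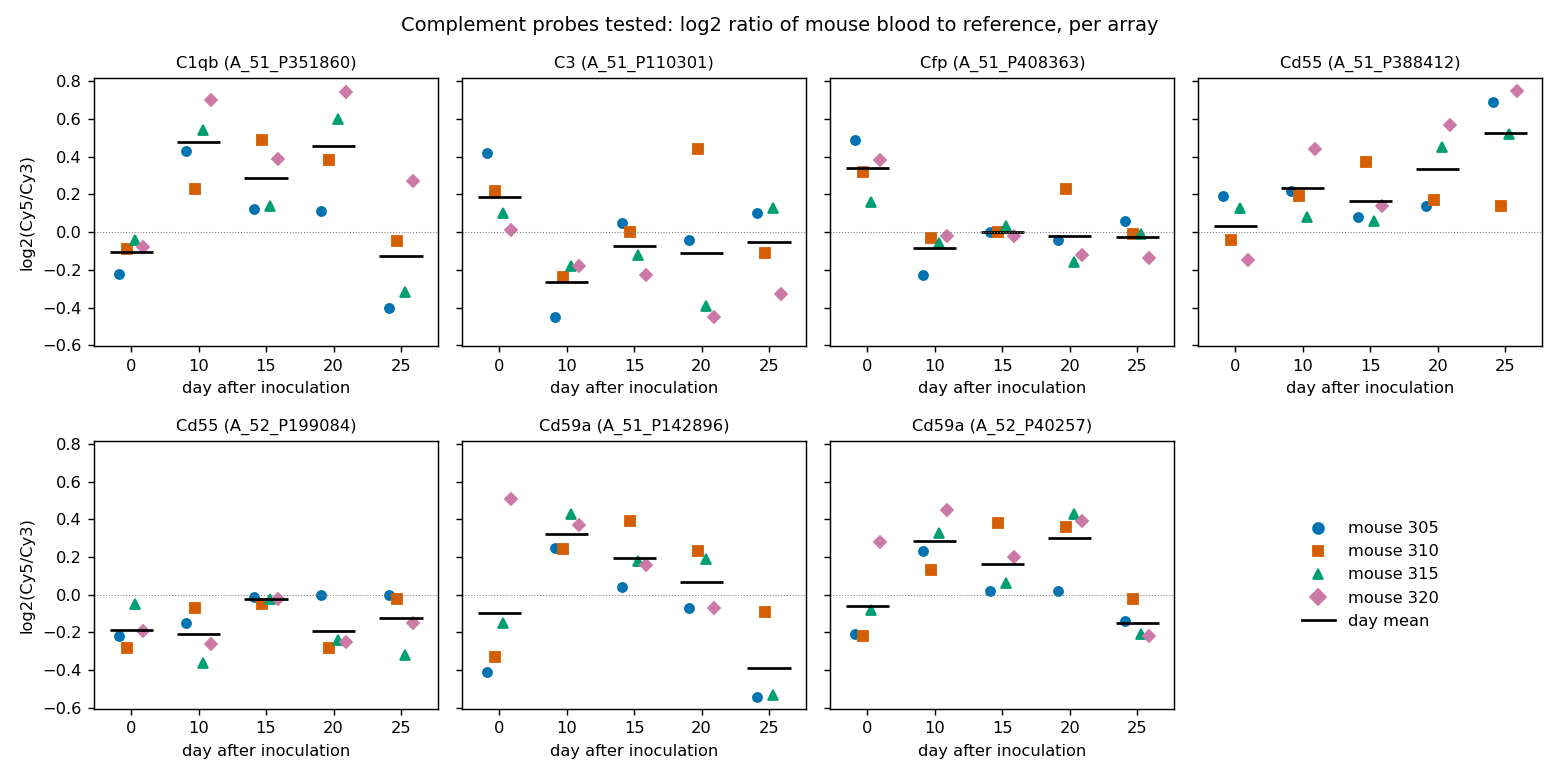
Log2 ratio of mouse blood (Cy5) to reference (Cy3) for each of the 7 tested complement probes, by day after inoculation, with 1 symbol per mouse and a line at the day mean. C1qb lies above its day 0 values on days 10, 15 and 20, Cfp lies highest on day 0, and both Cd59a probes are lower on day 25 than on any mouse of day 10.

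The genes whose log2 ratio followed each of these members most closely are a description over arrays that share a reference and, within a day, a slide. For C1qb over 20 arrays they were Matk (Pearson r = 0.976), Nes (0.973) and C1ql2 (0.973). For Cfp they were the myeloid kinase gene Fgr (r = 0.913), Slc16a3 (0.911) and Sirpa (0.905). For Cd59a over the 19 arrays measured they were Fam126a (named Drctnnb1a on the array, r = 0.961), Eif1 (0.96) and Tpm1 (0.949). After day means were removed these correlations lay between 0.787 and 0.958.

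The other complement genes were taken from lists of 46 further genes with 68 probes, of which 25 probes of 19 genes passed the filter. In these arms no gene outside the 8 members was called: C1ra, C2 and Masp2 of the classical and lectin arms, Cfb of the alternative arm, and Hc (C5) and C6 of the terminal pathway all missed the threshold in each comparison and in the F test. Among them C1ra had the smallest F test p (adjusted p = 0.119), with -0.15 on day 25, and C2 reached 0.25 on day 20 (adjusted p = 0.193). Masp2 and Hc differed from day 0 by at most 0.11 and 0.14 on any day. The scanner software's log ratio gave larger values, with calls on day 10 for Hc (1.52, adjusted p = 0.0154) and C2 (0.88, adjusted p = 0.0363) and on day 15 for Hc (1.12, adjusted p = 0.0444) and Masp2 (0.81, adjusted p = 0.0144). From day 10 to day 25 it gave differences of -1.80, -1.62 and -0.77 for Hc, C2 and Masp2 (adjusted p = 0.00344, 0.000569 and 0.0203). Without background correction all 3 were also called lower between these days (adjusted p = 0.0167, 0.000127 and 0.0276), and C2 was higher on day 10 (0.21, adjusted p = 0.0123). With scaling between arrays Hc was called on day 10 (0.075, adjusted p = 0.0351), and Hc and C2 were called lower from day 10 to day 25 (adjusted p = 0.0273 and 0.0275). In Cy5 alone C2 was higher on day 20 (0.23, adjusted p = 0.0331). Hc was well above background on 3 arrays of day 10, 2 of day 25 and 0 of the other days. Susd4, a membrane regulator of complement, had an adjusted F test p of 0.202. Among the 25 probes, 3 were called on day 10, 0 on day 15 (3 with an unadjusted p under 0.05), 1 on day 20 and 0 on day 25 (5 with an unadjusted p under 0.05). From day 10 to day 25, 5 were called, 3 higher and 2 lower, and the F test called 5. As shares these compare with the 11.2%, 5.87%, 2.90%, 0.148%, 31.5% and 27.0% of all probes given above. The median difference of the 25 lay between -0.068 and 0.0080 over the 5 comparisons.

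The receptors held the largest of the called changes. C5ar2, a second receptor for C5a, went from 0.14 ± 0.13 (SD, n = 4) on day 0 to -0.25 ± 0.16 (n = 4) on day 10, a difference of -0.39 (SE 0.089, adjusted p = 0.00984) without overlap. Itgb2, the beta chain shared by complement receptors 3 and 4, was 0.24 ± 0.13 (n = 4) on day 0 and -0.25 ± 0.17 (n = 4) on day 20, lower by 0.49 (SE 0.094, adjusted p = 0.0102) in 4 of 4 mice. That call was lost with median centring (adjusted p = 0.252) and with scaling between arrays (adjusted p = 0.0899). Its partner Itgam differed by at most 0.11 from day 0 with either probe and was not called. Cr2, the B cell receptor for C3d, rose by 0.45 from day 10 to day 25 with A_51_P208525 (adjusted p = 0.0021), while A_52_P490788 differed by -0.13 (adjusted p = 0.347). Some B cell markers moved with the first probe. On day 25 against day 10, 4 of 8 were called higher and 0 lower, where 31.5% of all probes were called. With median centring 8 were called higher, and with scaling between arrays 0, where 10272 and 2251 of all 20920 probes were called higher. The part of B cell content in the Cr2 value was not tested. Itgax rose by 0.23 on day 10 with A_52_P424887 (adjusted p = 0.0417) and differed by 0.069 with A_51_P303424 (adjusted p = 0.795). Cd93 fell by 0.19 from day 10 to day 25 with A_52_P607230 (adjusted p = 0.0121), a probe well above background on 2 and 3 of 4 arrays of these days. Its other probe, A_51_P238722, was well above background on 20 arrays. That probe differed by -0.57 (SE 0.27, adjusted p = 0.112, lower in 2 of 4 mice). The Cd93 call was lost under each of the 5 other settings of background and scaling (adjusted p from 0.0585 to 0.606), and that of Itgax with median centring (adjusted p = 0.721) and in Cy5 alone (adjusted p = 0.846).

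Among the regulators, C1qbp, whose product binds C1q but acts mainly in mitochondria, was 0.30 lower on day 10 than on day 0 (-0.29 ± 0.10 against 0.0031 ± 0.11, SD, n = 4 each, adjusted p = 0.0132). It rose by 0.30 from day 10 to day 25 (adjusted p = 0.00385), so that it ended at 0.012 ± 0.070 (n = 4). With the scanner software's log ratio its day 10 difference was -0.15 (adjusted p = 0.243). Cr1l, the rodent regulator Crry, rose by 0.24 from day 10 to day 25 (adjusted p = 0.0154). C4bp fell by 0.23 between these days (adjusted p = 0.030), with 2 and 1 of 4 arrays well above background. Clu, which restrains the membrane attack complex in fluid, was not called in any comparison. The day 10 call of Itgax was lost without any of 9 arrays (mice 305, 310 and 315 of day 0, mice 305, 315 and 320 of day 10, and mice 305, 315 and 320 of day 15), with adjusted p up to 0.166. The day 10 call of C1qbp was lost without mouse 315 of day 10 (adjusted p = 0.0504), and that of Cr1l without mouse 305 of day 25 (adjusted p = 0.0614). The C4bp call was lost without mice 315 or 320 of day 10 or mice 305 or 315 of day 25 (adjusted p up to 0.117). The F test call of Cd93 was lost without mice 305, 315 or 320 of day 25 (adjusted p up to 0.097).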

How the data were processed

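Total RNA of whole blood was measured on 20 two-colour arrays, 4 mice on each of 5 days. The deposited scanner files hold the mean signal and median local background intensity of each spot in both channels and flags (well above background, saturated, non-uniform), per the file headers, from Agilent Feature Extraction 9.1.3.1 (named in the submitters' processing notes). They also hold that software's log10 ratio of Cy5 over Cy3, which the authors deposited again as processed values of the whole series (900360 of 900360 values equal within 1e-6, column medians 0), and which served as an alternative after conversion to log2. No genome build is given in the sources used here.

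From the deposited intensity values, log2 ratios were computed in limma 3.58.1 (R 4.3.3, statmod 1.5.0). Background was corrected with normexp (offset 50) then loess was run within arrays (weight 0 for control spots), without scaling between arrays. Between 9 and 214 non-uniform spots per array were dropped and spots of a probe were averaged. Probes were kept when well above background in Cy5 on at least 4 of 20 arrays and measured on at least 3 arrays of each day (20920 of 41174). One fit with 5 day means covered all arrays (lmFit, eBayes, two-sided). The Benjamini-Hochberg adjustment ran over the probes kept, with a threshold of 0.05, and an F test over the comparisons with day 0. Data were also simulated with each probe's spread within days and noise independent between probes and arrays. For day 10 against day 0, 98 of 100 probes changed by 1 log2 unit and 83 of 100 changed by 0.5 were recovered. There were 9 false calls among 20920 probes. The simulation held no effect of slide or mouse and no shift of a whole day, so these rates need not hold for the real arrays.

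The mouse numbers are a pairing of samples by animal, as every mouse gave blood on all days. Deviations from day means correlated at a mean r of 0.0846 over 40 pairs of arrays of 1 mouse and -0.0287 over 120 pairs of different mice. Over the 40 pairs of 1 mouse r ran from -0.42 to 0.52. The main fit has no block. P-values measure the spread between the arrays of these 4 mice within days. They hold no spread between slides, as the 4 arrays of a day shared 1 slide. Precision is limited by the number of arrays.

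Named were all member probes, every gene of the complement lists with a call, up to 6 more by smallest F test p, and for each member with an F test call the 3 genes of highest Pearson r. A gene that this rule names is not reported here. The members and gene lists were chosen with earlier results of these data known. Gene names follow the gene table of GRCm38.p6, in which 23374 probes matched by accession. Promoters came from RefSeq. Alternatives were no background correction, the scanner log ratio, median centring, scaling between arrays, Cy5 alone (after Aquantile), other filters on dim probes, 1 probe per gene, the mouse as a fixed or random block, and each array left out. The fit without day 15, the change against the median of all probes and the fit of Cy3 alone were added after the data had been seen. Liver and hepatoma, platelet and T cell marker lists were also summarised.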

Additional observations from a re-analysis of the deposited data

Results flagged for a closer look

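Among 34 groups of 4 arrays, 2 held a value far from the rest, where chance flags about 1 in 20. Cfp on day 10 was -0.23 in mouse 305, against -0.06 to -0.02 in the other mice. The Cd55 probe A_52_P199084 on day 20 was 0 in mouse 305, against -0.28 to -0.24 in the others. In addition, 3 probes changed from day 0 by a different amount on day 25 than on day 10, by the test of day 25 against day 10. The change of C1qb on day 25 less that on day 10 was -0.60 (adjusted p = 0.00481). For Cd59a it was -0.71 with A_51_P142896 (adjusted p = 0.00504) and -0.43 with A_52_P40257 (adjusted p = 0.00779).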

How the results depend on the processing

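The main counts of member probes called were 2, 1, 2 and 0 of 7 against day 0 (days 10, 15, 20 and 25), 3 for day 25 against day 10, and 4 by the F test. Without background correction they were 6, 6, 5, 3 and 5, where 8254, 8278, 3726, 2935 and 9086 of all 20920 probes were called. With the scanner log ratio they were 5 on day 10, 5 on day 15, 2 on day 25 and 5 for day 25 against day 10. Of all probes it called 6362, 9151, 805 and 8790 in these comparisons. Median centring gave 0 on day 15, 0 on day 20 and 1 by the F test, beside 3, 3 and 3574 of all probes. Scaling between arrays gave 5 on day 15, 1 on day 20 and 1 on day 25, Cy5 alone 3, 1 and 2 on these days, and no filter on dim probes 1 on day 20. The calls of all probes on these days were 6062, 829 and 563 with scaling and 5832, 4713 and 2052 in Cy5 alone. With no filter they were 382 of 41142 on day 20. Mouse as a replicate block (fixed term) gave 4 on day 10, 2 on day 15 and 1 on day 25, and apart from the values in the report and the pathway counts below it changed no other member's call. The block called 2911, 1446 and 275 of all probes on days 10, 15 and 25. Without the 4 arrays of day 15, day 20 gave 0, where 236 of all probes were called. For the pathway lists with members (32 probes) the main counts were 5, 1, 3, 0 and 8. They were 15, 15, 13, 7 and 16 without background correction. With the scanner log ratio they were 11, 16, 8, 3 and 17. Median centring gave 13 on day 10 and 0 on days 15 and 20, scaling 9, 11 and 2 on days 10, 15 and 25, and Cy5 alone 9, 9 and 3 on days 15, 20 and 25. The replicate block gave 2, 5 and 2 on days 15, 20 and 25, and leaving out day 15 gave 1 on day 20. The calls of all probes given above for each setting stand beside these pathway counts. On day 20 they were also 2477 with the scanner log ratio and 1522 with the block. On day 10 they were 9220 with median centring and 3773 with scaling.

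With 1 array left out, member counts ranged from 1 to 5, 0 to 2, 0 to 3, 0 to 2 and 3 to 4, and from 3 to 5 by the F test. Pathway counts ranged from 3 to 8, 0 to 2, 1 to 6, 0 to 6 and 6 to 10. The F test call of the Cd59a probe A_51_P142896 was lost without mouse 305 (adjusted p = 0.0777) or 315 (adjusted p = 0.0784) of day 25. F test calls were gained by Cd55 without any of 4 arrays (lowest adjusted p = 0.00585) and by C3 without mouse 310 of day 20 (adjusted p = 0.0328).

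Directions turned as follows. With median centring C1qb was -0.18 on day 10 and 0.47 for day 25 against day 10, and the Cd59a probes were 0.27 and 0.14 in the latter. With Cy5 alone C1qb was 1.13 on day 25 and 0.51 for day 25 against day 10. Without background correction the Cd55 probe A_52_P199084 was 0.17 on day 20 (adjusted p = 0.0302). The cause was not tested. Of all probes, 854 were called higher and 1489 lower on day 10, but 15 and 9205 with median centring, and for day 25 against day 10 the split was 3708 and 2877 but 10272 and 186. Over these alternatives the calls of all probes, 2343, 1227, 607, 31 and 6585 for the 5 comparisons with the settings of the report, reached 9220, 9151, 4713, 2935 and 10458 at most, and were 1628, 3, 3, 0 and 4607 at least. With 1 array left out they ranged from 846 to 3335, 647 to 1720, 105 to 3345, 1 to 2273 and 4803 to 7913. Ratios of dim probes are limited by their signal over background.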

Other observations

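Marker lists of other cell types were summarised beside the complement genes, and the counts below are of calls. Against day 0, 11.2% of all probes were called on day 10 and 5.87% on day 15. For day 25 against day 10 the share was 31.5%. Of 8 platelet markers, 1 was higher on day 10 than on day 0 and 3 were lower on day 25 than on day 10. Of 8 T cell markers tested, 1 was lower on day 10 and 3 on day 15 than on day 0, and 4 were higher on day 25 than on day 10. Of 10 liver and hepatoma markers, 6 were tested and 0 were called by limma in any of the 5 comparisons, and Apoa1 was well above background on no array. With the scanner software's log ratio 3 of the 6 were higher on day 10 than on day 0 (median 1.14) and 4 were lower on day 25 than on day 10 (median -1.57). That setting called 2335 of all 20920 probes higher in the first of these comparisons and 3912 lower in the second. Without background correction 2 were higher and 3 lower in these comparisons, beside 3258 and 4105 of all probes. With median centring 1 was lower on day 10 and 2 were higher on day 25 than on day 10, beside 9205 and 10272 of all probes. With scaling between arrays 1 was higher and 1 lower on day 10 and 1 was lower on day 25 than on day 10, and in Cy5 alone 1 was lower on day 10. Of all probes, scaling called 1509 higher and 2264 lower on day 10, and 2356 lower on day 25 than on day 10. Cy5 alone called 2835 of all probes lower on day 10. From day 10 to day 25, 3 of 13 monocyte and macrophage markers and 2 of 14 neutrophil markers were called higher. Of all 20920 probes, 3708 were called higher and 2877 lower between these days.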
